A study of Bos taurus with 8 samples.

Results

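miR-184 is a single mature miRNA, listed as bta-miR-184, and is 1 of the 1028 bovine miRNAs in the deposited table. Of these, 545 were detected in at least 1 library and 243 had a mean above 10 CPM, the read count scaled to the size of the library (TMM-adjusted), and were compared here. miR-184 was selected on its season values, since the ratio of its summer mean to its winter mean was the highest of the 243. Its season difference is therefore given as a description, without a test.

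The libraries hold small RNA from extracellular vesicles of follicular fluid (FF-EVs), taken by ultrasound-guided ovum pick-up from dry, open, crossbred beef cows (Bos taurus). The SUM group (4 libraries) was collected in summer and the WIN group (4 libraries) in winter, and cows of both groups received a progesterone device, a GnRH analog and FSH beforehand. Each library is a pool of 2 cows. The same 11 cows were sampled in both seasons, but which pools match is not given, so the 8 pools are treated as unrelated. The libraries held 214004 to 1689467 miRNA reads, with SUM replicate 3 (214004) and WIN replicate 1 (235340) the shallowest. Among miRNAs that mark the follicle, miR-202 was at 3086 to 11850 CPM. miR-451 of red blood cells (1031 to 18773 CPM) and miR-122 of the liver (2690 to 16943 CPM) were present in every library as well. As the vesicles come from many cells, fewer cells of a type and less RNA per cell cannot be told apart.

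A miRNA guides an Argonaute protein to messenger RNAs that pair with its seed and lowers their output, and vesicles can carry it from cell to cell. miR-184 is conserved from insects to mammals and is best known from the corneal and lens epithelium, where it is among the most abundant miRNAs. A mutation in the seed of human miR-184 causes an inherited disease of the cornea and lens. In human keratinocytes miR-184 counteracts miR-205, another epithelial miRNA, at the phosphatase SHIP2, and in Drosophila the loss of miR-184 disrupts egg production.

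In the RefSeq annotation of ARS-UCD2.0, the bovine gene MIR184 overlaps the long noncoding RNA LOC112443131, without regard to strand, and stands between the protein-coding genes RASGRF1 and ANKRD34C. The closest annotated miRNA genes on its sides are MIR2285CO and MIR211. Neither neighbour was found at a comparable level. bta-miR-211 was at 0 to 8.87 CPM, and bta-miR-2285co was at 0 in every library, which allows up to 3 reads, or at most 12.1 CPM in the shallowest library.

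miR-184 was at a similar level in 5 of the 8 libraries, far higher in SUM replicate 3, higher in SUM replicate 4 and far lower in WIN replicate 2. In SUM it had 454, 364, 3053 and 1209 CPM (replicates 1 to 4). In WIN it had 375, 91.2, 404 and 461 CPM. The seasons overlapped, and SUM replicates 1 and 2 lay among the WIN libraries. A SUM library was above a WIN library in 12 of the 16 possible pairs.

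The reads behind these values were 217, 264, 759 and 963 in SUM and 98, 72, 712 and 266 in WIN. The exact Poisson 95% interval of the CPM, which covers counting error only, was 2840 to 3278 in SUM replicate 3, 1134 to 1288 in SUM replicate 4 and 71.4 to 115 in WIN replicate 2. None of these met the interval of any other library. For the 5 remaining libraries the intervals all overlapped each other, with the highest lower bound at 407 and the lowest upper bound at 410 CPM. They ran from 364 CPM in SUM replicate 2 to 461 CPM in WIN replicate 4.

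**Figure D1:**
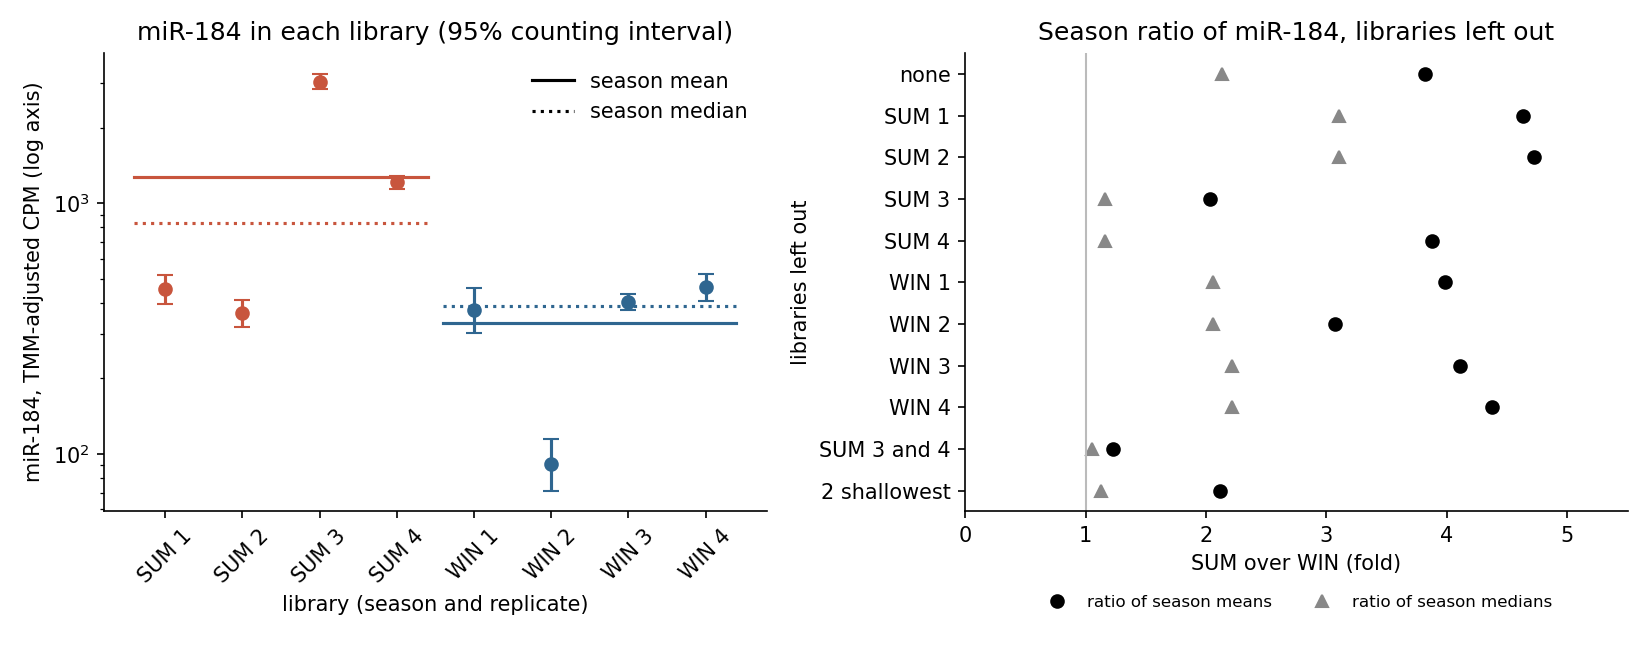
Left, miR-184 in TMM-adjusted CPM (log axis) in each SUM and WIN library, with exact Poisson 95% intervals as bars, season means as lines and season medians as dotted lines. Right, the ratio of SUM to WIN means (circles) and medians (triangles) with the libraries named on the axis left out; the ratio of means is 3.82 with all libraries and 2.03 without SUM replicate 3.

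As a share of the miRNA reads, miR-184 made up 0.355% in SUM replicate 3, 0.107% in SUM replicate 4 and 0.00984% in WIN replicate 2. In the other 5 libraries it made up 0.0298 to 0.0476%. It ranked 33 of 320 detected miRNAs in SUM replicate 3, 53 of 408 in SUM replicate 4 and 138 of 377 in WIN replicate 2, and between 74 and 86 elsewhere. SUM replicate 3, where miR-184 was highest, was also the shallowest library, and the correlation of miR-184 with the number of miRNA reads was -0.38 over the 8 libraries (Pearson r, log2 scale, as a description). The part of depth in the level of miR-184 was not tested.

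On the mean scale the season difference was large, but it rested mainly on SUM replicate 3. The SUM mean was 1270 ± 1248 CPM and the WIN mean 333 ± 165 CPM (SD, n = 4 libraries in either season), a ratio of 3.82, which ranked 1 among the 243 compared miRNAs. The medians were 832 and 390 CPM, a ratio of 2.13, which ranked 25. On the scale of log2(CPM + 1) the difference was 1.64, which ranked 7, with an SD of 1.41 in SUM and 1.09 in WIN.

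Without SUM replicate 3 the SUM mean was 676 ± 464 CPM (SD, n = 3), which lowered the ratio of means to 2.03 and the ratio of medians to 1.17. Leaving out any other single library gave a ratio of means between 3.07 (without WIN replicate 2) and 4.72 (without SUM replicate 2). Without SUM replicate 4 the ratio of medians also fell to 1.17. Without SUM replicates 3 and 4 together, a choice made after their values were seen, the ratio of means was 1.23. The direction, SUM above WIN, was kept in all of these, which reuse the values that chose miR-184.

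The spread of miR-184 between libraries of the same season was wide for a miRNA of its abundance. This spread and the ranks below are given as a description, since the same values chose miR-184. Its within-season SD of log2(CPM + 1) was 1.26, against a median of 0.52 for the 243 miRNAs, and counting error alone would give 0.10. It ranked 35 of the 243, but most of those above it were of low abundance. Among the 131 miRNAs with a mean above 100 CPM it ranked 7, behind miR-206, miR-451, miR-371, miR-9-5p, miR-215 and miR-1298, with SDs of 1.29 to 1.51.

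The 6 miRNAs closest to miR-184 in mean CPM (801) varied far less. They are miR-1, miR-101, miR-7, miR-26b, miR-2284x and miR-30e-5p, with means of 765 to 876 CPM. Their highest library was 1.66 to 3.12 times their lowest, while for miR-184 this ratio was 33.5, the highest of the 131. Their within-season SDs were 0.26 to 0.42. miR-1 of striated muscle, for example, ranged from 515 CPM in SUM replicate 3 to 1424 CPM in WIN replicate 1. miR-26b ranged from 475 CPM in SUM replicate 3 to 1307 CPM in WIN replicate 4.

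**Figure D2:**
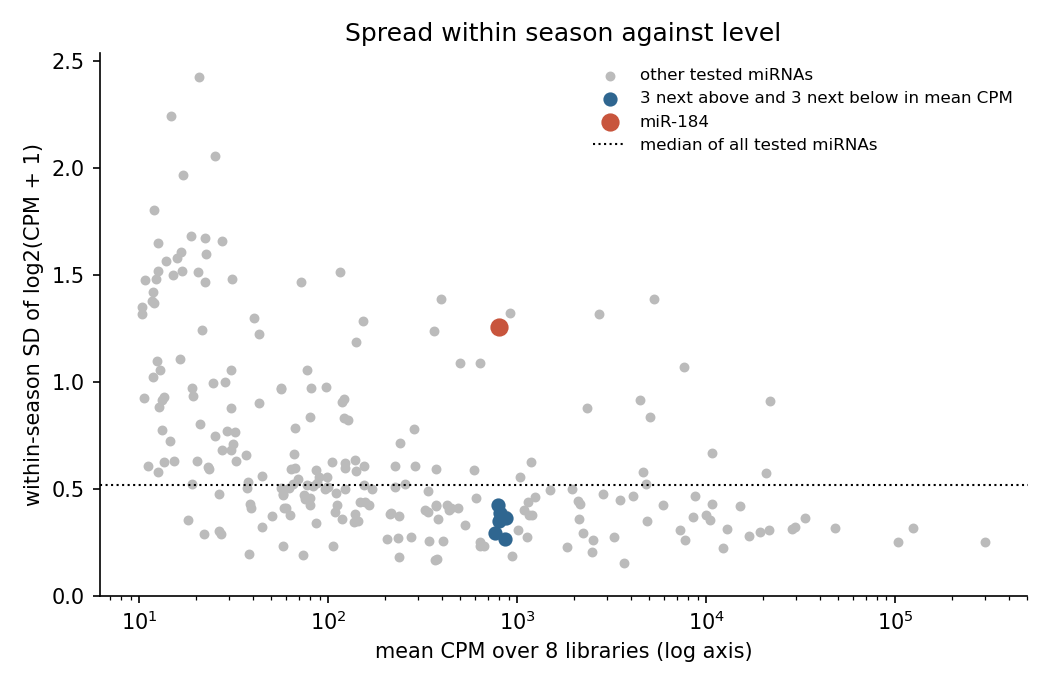
Within-season SD of log2(CPM + 1) against mean CPM (log axis) for the 243 compared miRNAs, 1 point each. miR-184 lies at 1.26, the 6 miRNAs of closest mean level lie between 0.26 and 0.42, and the dotted line marks the median of 0.52.

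In SUM replicate 3 miR-184 was 2.52 times its second highest library, and for only 4 others of the 243 was this ratio higher (miR-122, miR-451, miR-34b and miR-1246). SUM replicate 3 was the highest library for 20 of the 243 miRNAs. It was followed by SUM replicate 4 for 4 of them, namely miR-184, miR-192, miR-221 and miR-29b. WIN replicate 2 was the lowest library for 25 of the 243.

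Few miRNAs followed miR-184 over the 8 libraries. Likeness was measured by Pearson r on log2(CPM + 1) and is a description, since the points share library, depth and season. Of the 242 other miRNAs, 5 had an r of at least 0.7 and 20 an r of -0.7 or below. The highest r of miR-184 was 0.85, while the median miRNA had a partner at 0.91. The 8 most alike were miR-147, miR-205, miR-222, miR-221, miR-19a, miR-192, miR-194 and miR-3432b.

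miR-147, which Toll-like receptors induce in mouse macrophages, had the highest r, 0.85 (Spearman rho 0.74). Its levels were 25.1, 20.7, 40.2 and 47.7 CPM in the SUM libraries, and 11.5, 0, 17.6 and 15.6 CPM in those of WIN. These values rest on 0 to 38 reads a library, and the 0 in WIN replicate 2 allows up to 3.80 CPM. With miR-184 it shared its 2 highest libraries and its lowest. Its r was 0.76 with season means removed and 0.81 to 0.95 with any single library left out.

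miR-205, a miRNA of stratified and glandular epithelia, was next with an r of 0.84 (Spearman rho 0.57). Its SUM libraries had 37.7, 116, 286 and 382 CPM, its WIN libraries 107, 30.4, 78.3 and 79.7 CPM. SUM replicates 3 and 4 were again the highest and WIN replicate 2 the lowest, but SUM replicate 1 was close to that level. Its r was 0.78 with season means removed, and 0.76 to 0.91 with any single library left out. Without SUM replicate 3 and WIN replicate 2, the libraries farthest from the median of miR-184, r was 0.75 for miR-205 and 0.86 for miR-147 (n = 6). miR-184 was 12.1 times as high as miR-205 in SUM replicate 1 and 10.7 times in SUM replicate 3, and at most 5.78 times in the other libraries.

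**Figure D3:**
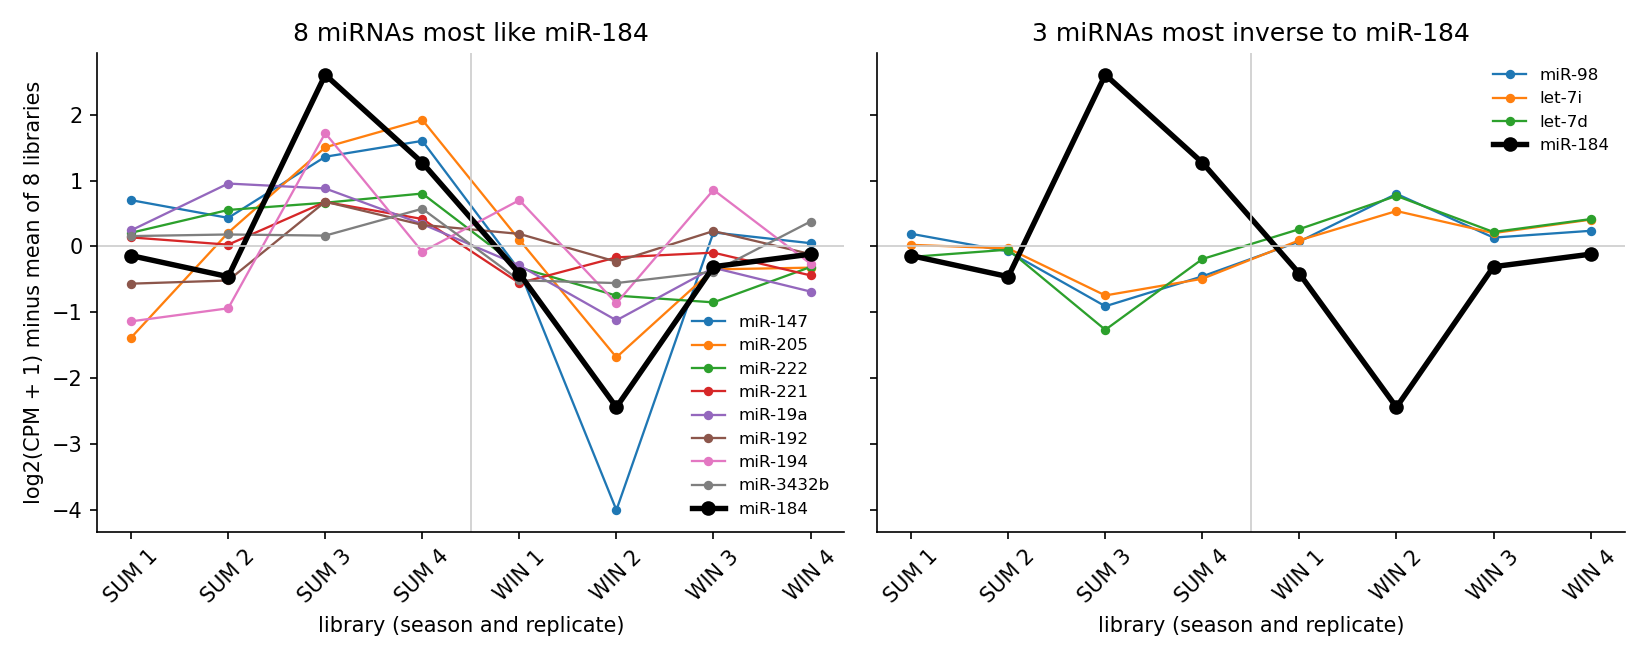
log2(CPM + 1) minus its mean over the 8 libraries for miR-184 (black) with the 8 most alike miRNAs (left) and the 3 most inverse (right), by library. miR-205 and miR-147 share with miR-184 the high values in SUM replicates 3 and 4 and the low value in WIN replicate 2, where miR-98, let-7i and let-7d are at their highest.

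The other 6 followed less closely. miR-222 and miR-221, which are made from 1 cluster, had r of 0.72 and 0.71. miR-221 stood at 360, 333, 523 and 437 CPM in the SUM libraries, against 222, 291, 306 and 241 CPM in WIN, so that its seasons did not overlap, unlike those of miR-184. miR-19a of the miR-17-92 cluster had an r of 0.71. miR-3432b, a miRNA named in cattle, had an r of 0.62. With season means removed, r fell to 0.53 for miR-222, 0.47 for miR-221, 0.47 for miR-19a and 0.36 for miR-3432b. Without SUM replicate 3 their r was 0.66, 0.44, 0.59 and 0.74. The Spearman rho of miR-19a was only 0.33. miR-222 and miR-19a were themselves called higher in SUM in the season comparison below.

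miR-192 and miR-194, which share a precursor transcript and are abundant in liver and gut, had r of 0.66 and 0.63. With season means removed these became 0.87 and 0.89, the highest of the 8. miR-194 stood at 180, 207, 1311 and 376 CPM in the SUM libraries, against 647, 218, 721 and 331 CPM in WIN. Its high value in SUM replicate 3 was shared with miR-184, but it was also high in WIN replicates 1 and 3, where miR-184 was not. Its r was 0.27 when SUM replicate 3 was left out, and -0.02 when WIN replicate 2 was left out as well.

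Which miRNAs were most alike depended on single libraries. Of the 8, only 3 were still among the 8 most alike without SUM replicate 3, 3 without WIN replicate 1, 4 without WIN replicate 2 and 5 without SUM replicate 2. With any of the other libraries left out 7 were. Without SUM replicate 3, miR-147 ranked 1, miR-205 ranked 3 and miR-3432b ranked 6 among the 242, while miR-222 ranked 15 and miR-194 ranked 68.

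**Figure D4:**
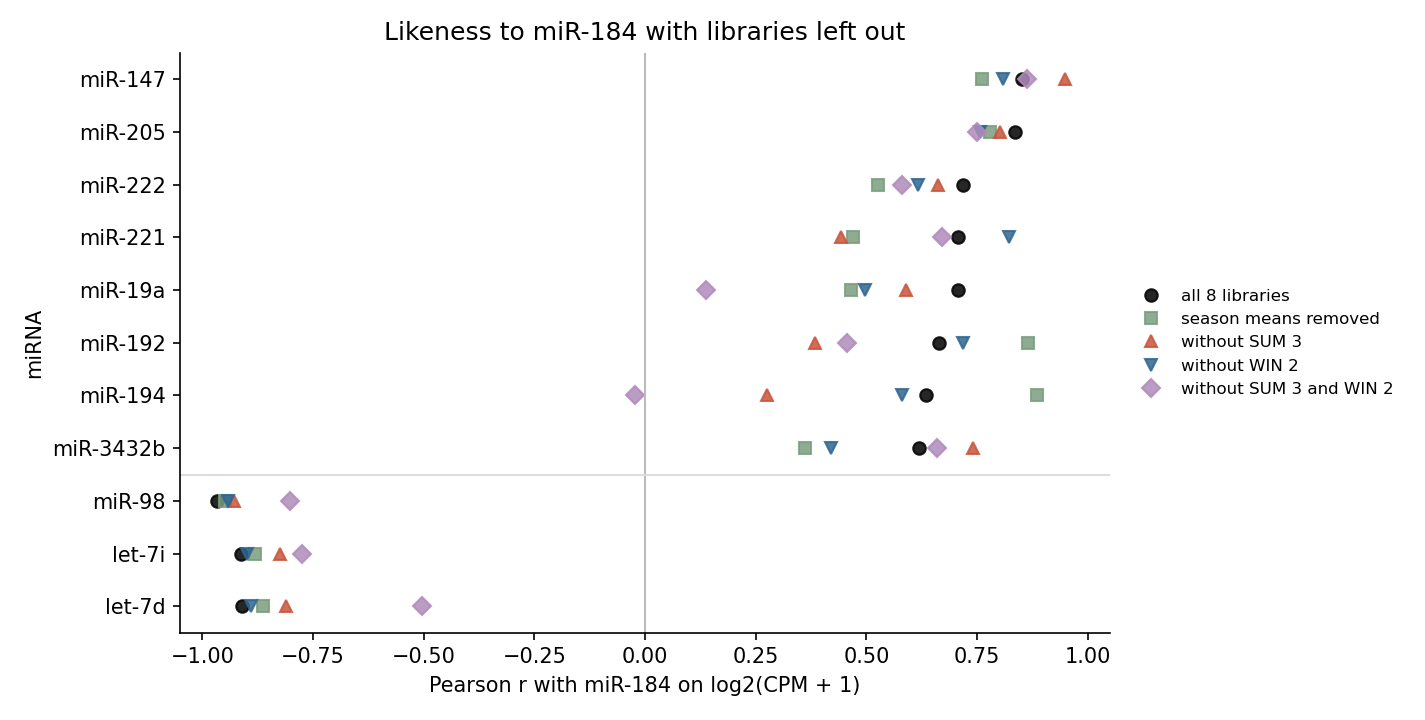
Pearson r with miR-184 on log2(CPM + 1) for the 8 most alike and the 3 most inverse miRNAs, with all 8 libraries, with season means removed, and without SUM replicate 3, WIN replicate 2 or both. miR-147 and miR-205 stay between 0.75 and 0.95, while miR-194 ranges from -0.02 to 0.89.

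By Pearson r, the strongest relations of miR-184 were inverse. miR-98, let-7i and let-7d, all of the let-7 family, which keeps differentiated cells from returning to a proliferating state, had r of -0.97, -0.91 and -0.91. Of the 243 miRNAs, 6 had a partner with a lower r, and the median of the lowest r was -0.89. miR-98 stood at 527, 438, 245 and 337 CPM in the SUM libraries, against 486, 803, 507 and 544 CPM in WIN. It was lowest in SUM replicate 3, next lowest in SUM replicate 4 and highest in WIN replicate 2, the reverse of miR-184, and lay between 438 and 544 CPM in the other 5 libraries. Its Spearman rho was -0.52, since those 5 libraries had the same order in miR-98 as in miR-184. The inverse relation thus rested on SUM replicates 3 and 4 and WIN replicate 2. The r of miR-98 was -0.95 with season means removed and -0.93 without SUM replicate 3. It was -0.80 without SUM replicate 3 and WIN replicate 2, where SUM replicate 4 remained, and -0.83 after rescaling to equal summed CPM.

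let-7i ranged from 11107 CPM in SUM replicate 3 to 27010 CPM in WIN replicate 2, and let-7d from 442 to 1814 CPM in the same libraries. The main arms of the let-7 family and miR-98, a set of 9 looked at after these values were seen, all had a negative r, from -0.97 to -0.11 for let-7b, with a median of -0.88. let-7a-3p, from the opposite arm of a let-7a precursor, had a positive r of 0.25. Without SUM replicate 3 the median was -0.75 and 8 of the 9 were negative, and without SUM replicate 3 and WIN replicate 2 it was -0.32. Which 3 were the most inverse depended on the libraries and the measure. Of miR-98, let-7i and let-7d, 0 remained among the 3 most inverse without WIN replicate 2 or by Spearman rho, and 1 remained after rescaling to equal summed CPM or with season means removed. With any other single library left out 2 or 3 did.

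As miR-184 is best known from epithelia, miRNAs of epithelial cells were set beside it. Of a list of 12, the 10 in the table were all compared (the miR-200 family members miR-200a, miR-200b, miR-200c, miR-141 and miR-429, then miR-205, miR-31, miR-182, miR-183 and miR-96). The r with miR-184 was positive for 7 of the 10, with a median of 0.28, against a median of -0.08 over the 242. miR-205 stood apart at 0.84, followed by miR-200a (0.57), miR-429 (0.54) and miR-200c (0.54), and miR-31 was lowest at -0.40. Their summed level was 6492 to 15549 CPM in SUM and 5355 to 10473 CPM in WIN, highest in SUM replicate 4, while SUM replicate 3, the highest in miR-184, was at 7848 CPM.

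In the season comparison a miRNA was called when its fold change exceeded 1.5 and its adjusted p was under 0.1 (limma on log2(CPM + 1), Benjamini-Hochberg over 243 miRNAs). This called 5.35% of the 243 miRNAs higher and 2.47% lower in SUM. Of the 10 epithelial miRNAs 1 was higher, none was lower and 9 were not called, with a median log2 fold change of 0.18 against 0.02 over all 243. The higher one was miR-200a, with 1707, 3412, 2048 and 4241 CPM in the SUM libraries against 1064, 836, 901 and 1444 CPM in WIN. The seasons did not overlap, and SUM exceeded WIN by 1.36 on the log2 scale (SE 0.33, limma adjusted p = 0.062). miR-205, whose SUM mean was 205 ± 157 CPM and WIN mean 73.9 ± 31.9 CPM (SD over 4 libraries), was not called, with a log2 difference of 1.13 (SE 0.65, limma adjusted p = 0.33). Leaving out SUM replicate 2, SUM replicate 4 or any of WIN replicates 2 to 4 left 0 epithelial miRNAs called higher, and leaving out SUM replicate 1 gave 2.

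**Figure D5:**
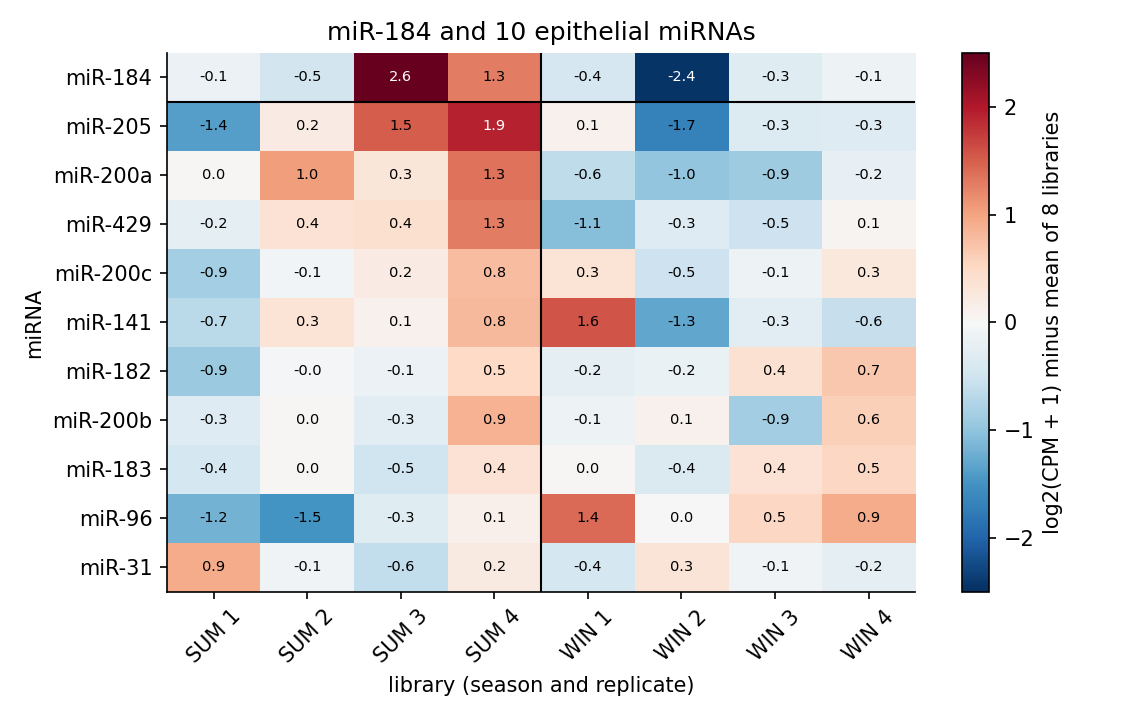
log2(CPM + 1) minus its mean over the 8 libraries for miR-184 (top row) and the 10 epithelial miRNAs, by library and in order of r with miR-184, with the value written in each cell. Only miR-205 joins miR-184 with values over 1 in both SUM replicates 3 and 4 and below -1 in WIN replicate 2.

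Markers of other cells differed between the libraries, also where miR-184 was at its usual level. WIN replicate 1, with miR-184 at 375 CPM, was highest for red blood cell (25918 CPM), liver (22085 CPM) and striated muscle miRNAs (1451 CPM). SUM replicate 2, with miR-184 at 364 CPM, was highest for follicle (13447 CPM) and neural miRNAs (16485 CPM). For the neural list SUM replicate 1 (16430 CPM) and WIN replicate 1 (16253 CPM) were nearly as high. SUM replicate 3 ranked 2 of 8 for the 3 liver miRNAs, miR-122, miR-192 and miR-194, with 10704 CPM summed, against 5571 to 9158 CPM in the rest of SUM and 6654 to 22085 CPM in WIN. Of these, miR-192 and miR-194 are among the 8 most like miR-184, while miR-122 was at 3085 CPM in SUM replicate 3, 5th of the 8 libraries, and had an r of -0.20 with miR-184. SUM replicate 3 ranked 4 to 8 for the other 8 lists, lowest for striated muscle and highest of the SUM libraries for the endothelial miRNAs (2418 CPM, against 1065 to 1318 CPM). SUM replicate 4 was highest for white blood cell miRNAs (1228 CPM, against 659 to 972 CPM in WIN). WIN replicate 2 was lowest for red blood cell miRNAs (2439 CPM, against 4114 to 25918 CPM in the rest of WIN). The part of these cells in the level of miR-184 was not tested.

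The summed levels of the remaining lists were 1065 to 2418 CPM in SUM and 2290 to 3595 CPM in WIN for endothelial miRNAs, and 39483 to 57540 and 33074 to 59083 CPM for stromal ones. They were 776 to 909 and 1019 to 1451 CPM for striated muscle, 6456 to 13447 and 4028 to 6702 CPM for the follicle, and 7156 to 16485 and 5556 to 16253 CPM for neural miRNAs. Most of the neural sum was miR-128 (mean 10754 CPM), followed by miR-9-5p (920 CPM). The neural members miR-9-3p, miR-137 and miR-124a had means of only 1.21, 0.64 and 0.30 CPM. Red blood cell miRNAs summed to 5262 to 12731 CPM in SUM. Of the members, miR-133b, miR-208a and miR-208b of muscle and miR-219-5p of neural cells were at 0 in every library. In the season comparison miR-142-5p (white blood cells) was called higher and miR-126-3p (endothelial) and miR-199b (stromal) lower, and no other member of these lists was called. These 3 lists did not move as a whole on the log2 scale. Of the white blood cell members miR-150 was also higher in SUM, but miR-155 and miR-342 were lower. miR-142-3p and miR-223, too low to be compared, had lower SUM means. The endothelial miR-126-5p was slightly higher. Of the stromal members miR-199a-5p and miR-145 were also lower, miR-143 and miR-214 were higher, and miR-199a-3p was nearly equal. miR-202 of the follicle was called higher with edgeR, DESeq2 and voom on the recovered reads, among miRNAs with a mean above 100 CPM, and without SUM replicate 3, and miR-122 was called lower with DESeq2. The calls of miR-142-5p, miR-126-3p and miR-199b were lost without SUM replicate 2, SUM replicate 4, WIN replicate 2 or WIN replicate 4. Those of miR-142-5p and miR-126-3p were also lost without WIN replicate 3. That of miR-126-3p was also lost without SUM replicate 1, with edgeR, without the filter and without the limma trend.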

How the data were processed

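Reads were trimmed by the authors, aligned with the ARS-UCD1.2 assembly and matched to bovine miRBase entries in CLC Genomics Workbench. They deposited a TMM-adjusted CPM value for each mature miRNA in each library. The submitters' processing notes also name bcl2fastq, Bowtie2 2.2.2 and DESeq2. These deposited values were handled as a signal, since their sums per library ran from 860872 to 1222033. Dividing each column by its smallest value above 0 gave whole reads for 100% of the values (tolerance 0.001), and 1 read was worth 0.567 to 4.02 CPM. Reads that near-identical miRNAs, such as the let-7 family, could share are uncertain.

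The season fit used limma 3.58.1 in R 4.3.3 (trend, no block) on log2(CPM + 1) for mean CPM above 10, and was tested on simulated data. Alternatives were other pseudocounts, filters, scalings and thresholds, a replicate block, leaving out libraries, and, run on the recovered reads, DESeq2 1.42.0, edgeR 4.0.16 and voom. Other values were computed with Python 3.11.15, scipy 1.17.1 and pandas 2.3.3, and plots were drawn in matplotlib 3.10.9. The miRNAs named are miR-184, the 8 most alike, the 3 most inverse, the 3 next above and 3 next below it in mean CPM, members of 9 marker lists, and a few named after their values were seen for their rank in spread or for the let-7 family. miR-184, the lists and the tests were chosen with earlier results of these data known. Seeds were not compared, since no sequences were used here. P-values measure the spread between pools.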

Additional observations from a re-analysis of the deposited data

Results flagged for a closer look

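For miR-184, given as a description since its values chose it, the gap of SUM replicate 3 to the next library was 0.69 of the SUM range, and that of WIN replicate 2 was 0.77 of the WIN range. Both gaps lay below the critical value of the Dixon test for an outlying library among 4, so neither library of miR-184 was flagged. Of 96 sets of 4 libraries examined for 48 miRNAs, 7 held a library past this critical value, where chance gives about 1 in 20. The 48 were miR-184, the most alike, the most inverse and those closest in mean CPM, with the compared members of the marker lists. Others named above, such as miR-1246, miR-371 and miR-215, were not examined.

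Among the miRNAs most like or inverse to miR-184, miR-3432b was at 123 CPM in SUM replicate 4 (other SUM libraries 92.1 to 93.7) and at 107 CPM in WIN replicate 4 (other WIN libraries 55.8 to 63.0). let-7d was at 442 CPM in SUM replicate 3 (other SUM libraries 933 to 1030). The next values lay in WIN replicate 1, one of the shallowest libraries, namely miR-141 at 203 CPM (26.6 to 55.0), miR-122 at 16943 CPM (2690 to 4335) and miR-9-5p at 2986 CPM (334 to 694), with the other WIN libraries in brackets. miR-126-5p was at 27.2 CPM in SUM replicate 1 (other SUM libraries 42.7 to 45.2).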

How the results depend on the processing

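The season difference of miR-184 on the log2 scale stayed positive and within 1 within-season SD of 1.64 in all 16 alternatives, from 0.52 without SUM replicates 3 and 4 to 2.07 without SUM replicate 2 (edgeR 1.97, DESeq2 1.99, rescaled to equal summed CPM 1.46). Its within-season SD stayed between 1.02 and 1.36 in 14 alternatives. Of the 8 most alike miRNAs, 3 to 7 remained among the 8 most alike with single libraries left out, 2 without the filter, 5 with a mean above 100 CPM, 4 with season means removed, 2 without the 2 shallowest libraries and 1 without the 2 libraries farthest from the median, where r turned negative for miR-194 (-0.023). Of the 3 most inverse, 1 remained without the 2 shallowest libraries and 0 without the 2 farthest. The cause was not tested.

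Across all miRNAs, 13 were called higher and 6 lower. The counts were 1 and 0 at an adjusted p below 0.05, 6 and 2 without the filter, 20 and 15 with edgeR and also with voom, 23 and 22 with DESeq2, and 24 and 11 without the 2 shallowest libraries. Setting every library to the same summed CPM shifted the median log2 difference from 0.02 to -0.17 and gave 11 and 22. With single libraries left out they ranged from 0 to 23 and from 0 to 7. Leaving out WIN replicate 4 gave 0 and 0 with limma (27 and 21 at an unadjusted p under 0.05), WIN replicate 2 gave 1 and 0, SUM replicate 2 gave 1 and 1, SUM replicate 4 gave 2 and 0, WIN replicate 3 gave 2 and 3, and SUM replicate 3 gave 23 and 7. The replicate number as a block gave 15 and 10, left the season difference of miR-184 at 1.64, and added miR-202 of the follicle to the list members called higher. Whether same-numbered libraries hold the same cows is not given. The correlations of their deviations were -0.02 to 0.30, and 2 of 4 correlated best with their own number. Without the 2 shallowest libraries miR-202 and 1 red blood cell miRNA were also higher and 1 muscle miRNA lower. Of the epithelial miRNAs 1 was lower after the rescaling, and 2 were higher and 1 lower with DESeq2. Voom and the fits without 2 libraries were added after the data were seen.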
